A study of Mus musculus with 2 samples.

Results

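The genes described here are Star, the protein that delivers cholesterol to the inner mitochondrial membrane, and 7 enzymes that can act on steroids: Hsd17b4, Hsd17b7, Hsd17b10, Hsd17b11, Hsd17b12, Srd5a1 and Srd5a3. They were given by name, as 8 of the 33696 genes in the deposited matrices, and all 8 were found. They were followed in splenic CD8 T cells of mice given dehydroepiandrosterone (DHEA), a steroid precursor that is injected to model polycystic ovary syndrome (PCOS) in mice. Spleen CD8 T cells of C57BL/6 mice, genotype WT, were isolated with magnetic beads and profiled by droplet single-cell RNA sequencing of transcript 3' ends. The DHEA group was injected under the skin every day for 21 days with 40 mg/kg DHEA in 20 µL sesame oil, and the CTRL group with the oil alone in the same volume. Each group is 1 library of pooled cells. The labels name no age or sex, and no number of animals in a pool. No difference between the groups therefore has a replicate check, and no test was run. Every interval given is an exact 95% interval that covers counting error only.

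DHEA is made from cholesterol in steroid-forming glands. Cholesterol enters mitochondria with the help of Star, is cut to pregnenolone by Cyp11a1 and is turned into DHEA by Cyp17a1. Other tissues turn DHEA into androgens and estrogens. The 3beta-hydroxysteroid dehydrogenases make androstenedione, the 17beta-hydroxysteroid dehydrogenases (17beta-HSD family) interconvert keto and hydroxy steroids, the 5alpha-reductases make dihydrotestosterone and aromatase makes estrogens. Many members of the 17beta-HSD family have a main task outside hormone metabolism, such as fatty acid breakdown, fatty acid elongation or cholesterol synthesis, so their transcripts alone do not show that a steroid is converted.

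Cells were kept with at least 200 detected genes, under 10% mitochondrial counts, and at least 1 UMI (unique molecular identifier, the count of 1 captured transcript) of Cd8a or Cd8b1 and of Cd3d, Cd3e or Cd3g. This gate held 8717 CTRL cells (94.6% of those past the other filters) with 49239407 UMIs and 10699 DHEA cells (91.7%) with 50077687 UMIs. The median depth was 5615 UMIs per cell in CTRL and 4483 in DHEA. Cd8a, which encodes a CD8 chain, reached 350 and 419 CPM (UMIs per 1000000 UMIs). Cd4, the marker of helper T cells, had 3 and 4 UMIs, the B cell gene Cd79a 72 and 36, and the myeloid gene Lyz2 16 and 49. The libraries had 51 barcodes in common, of which 44 CTRL and 45 DHEA cells passed the gate, and leaving these out is among the alternatives tried. Levels are sums of UMIs over gated cells in CPM, which count transcripts and are not scaled to gene length.

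The first question was which steroid-converting steps these cells express at all. Of 64 genes of 9 steps found in the files, 19 had 0 UMIs in both libraries, 9 had at most 3 UMIs in each, 13 had more but stayed under 200 in all, and 23 reached 200 or more. A gene with at least 200 UMIs over both libraries is called measured here. A count of 0 allows a level of up to 0.0609 CPM in CTRL and 0.0599 in DHEA, the value of 3 UMIs. The steps from cholesterol to DHEA and glucocorticoids were almost empty. Cyp11a1, Cyp21a1, Cyp11b1 and Cyp11b2 had 0 UMIs in gated cells, and Cyp17a1 had 0 in CTRL and 5 in 5 DHEA cells.

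The step that leads from DHEA to androstenedione was sparse as well. Hsd3b1 and Hsd3b6 had 0 UMIs, Hsd3b3 1 and 0, and Hsd3b2 9 in CTRL and 2 in DHEA. Hsd3b7, which acts on bile acid precursors, had 42 and 31. Aromatase, Cyp19a1, had 0 UMIs in CTRL and 1 in DHEA. Among the 5alpha-reductases, Srd5a2 had 0 in CTRL and 2 in DHEA, both in 1 cell. The sulfotransferases that store DHEA as its sulfate were also near 0: Sult2a1, Sult2a3, Sult1e1 and Sult2a5 to Sult2a8 had none, while Sult2a2 had 1 and 1 and Sult2a4 0 and 1. Slc10a6, which carries sulfated steroids into cells, had none.

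Within the 17beta-HSD family the counts fell into a low and a high group. Hsd17b1, which makes estradiol, had 8 UMIs in CTRL and 6 in DHEA, and Hsd17b2, which inactivates it, had 6 and 5. Hsd17b3, the testosterone-forming enzyme of the testis, had 1 and 7, the 7 in 2 cells. Hsd17b6 had 1 and 0, Hsd17b13 11 and 1, and Hsd17b14 9 and 1. The other 6 of the 12 genes in this family were measured, and 5 of them are among the 8 genes described here. The measured remainder was Hsd17b8, an enzyme of mitochondrial fatty acid synthesis, at 61.1 CPM (58.9 to 63.3) in CTRL and 66.5 (64.3 to 68.8) in DHEA.

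**Figure D1:**
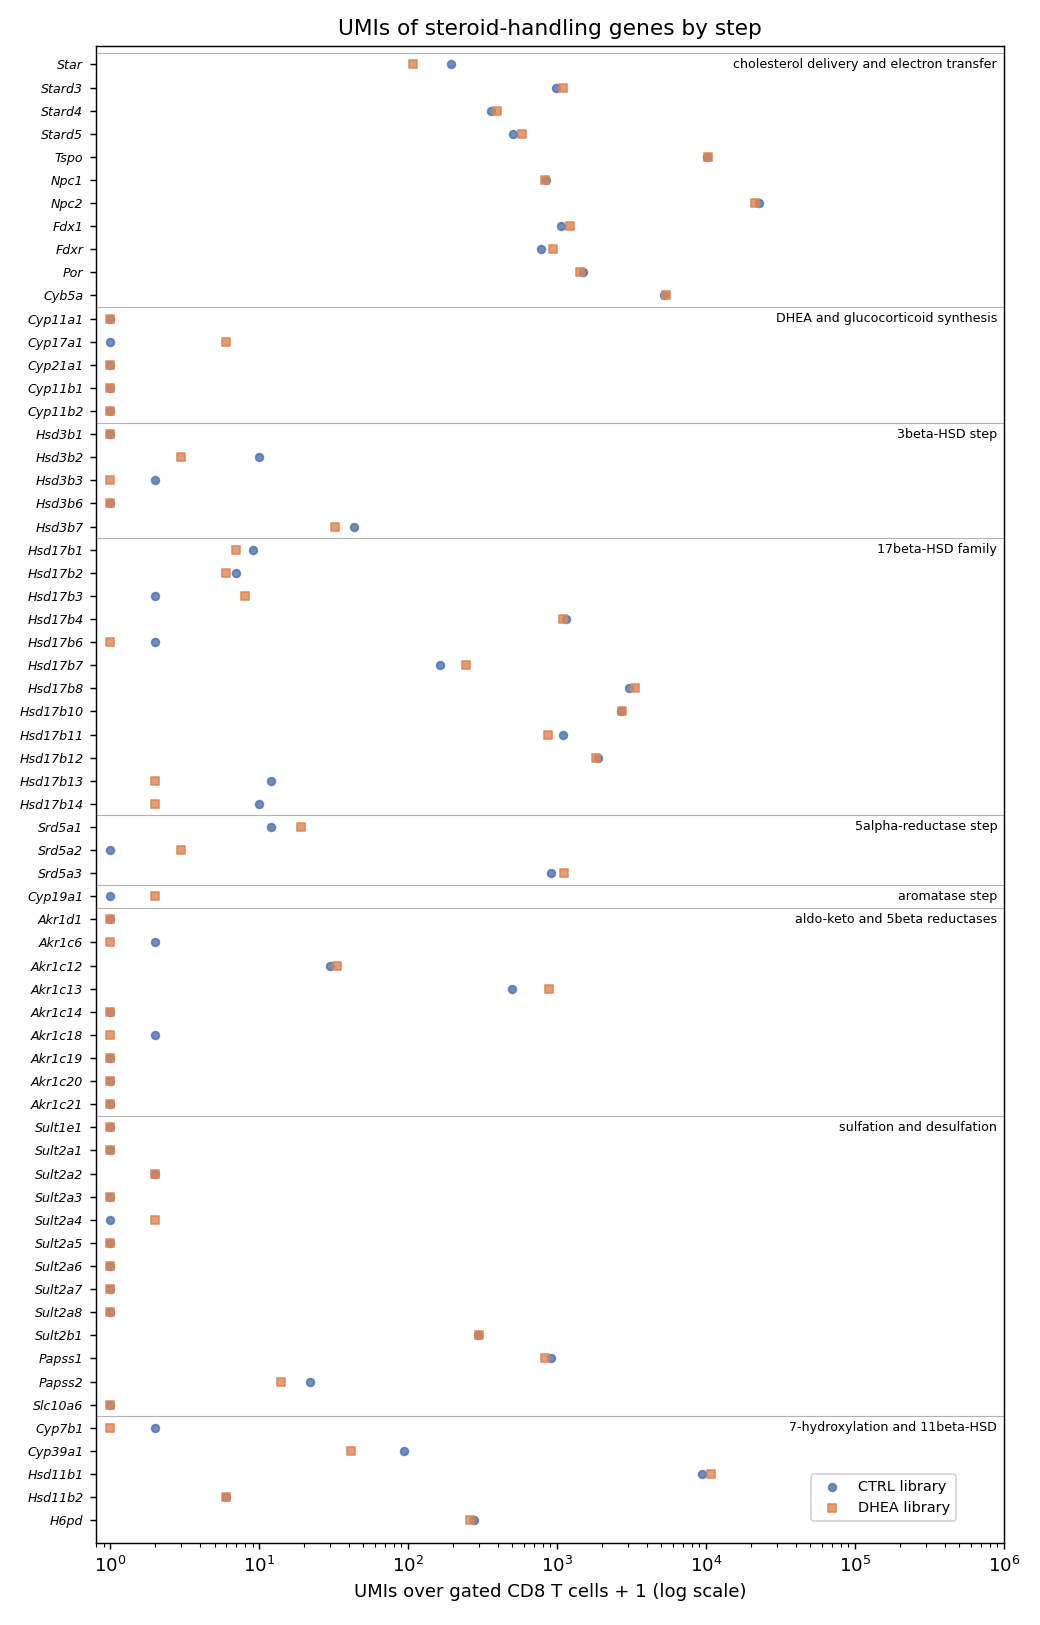
UMIs summed over gated CD8 T cells for 64 genes of 9 steroid-handling steps, plotted as UMIs + 1 on a log axis, with circles for the CTRL and squares for the DHEA library and no replicates. Genes of DHEA synthesis, the 3beta-HSD step and aromatase lie at the left edge or below 50 UMIs, while Star lies between 100 and 200, most members of the 17beta-HSD family given by name near or above 1000, and Hsd11b1 near 10000.

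Beyond those 8 genes, the most abundant steroid-converting enzyme was Hsd11b1, which regenerates active glucocorticoid inside cells. It stood at 189 CPM (185 to 193) in CTRL and 215 (211 to 219) in DHEA. H6pd, which supplies its cofactor, stood at 5.54 and 5.13 CPM, and Hsd11b2, the enzyme of the opposite direction, had 5 UMIs in each library. Akr1c13, an aldo-keto reductase, stood at 10.1 CPM (9.26 to 11.1) in CTRL and 17.6 (16.4 to 18.8) in DHEA, a log2 ratio of DHEA over CTRL of 0.79 (0.63 to 0.96). Its near-identical neighbour Akr1c12 had 29 and 32 UMIs, and reads shared between the pair could be assigned to either. The other aldo-keto and 5beta-reductase genes searched, Akr1d1, Akr1c6, Akr1c14, Akr1c18, Akr1c19, Akr1c20 and Akr1c21, had at most 1 UMI each. Sult2b1, which sulfates cholesterol and related hydroxysteroids, stood at 5.93 and 5.97 CPM.

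Cyp7b1, which 7alpha-hydroxylates DHEA, had 1 UMI in CTRL and 0 in DHEA. The oxysterol hydroxylase Cyp39a1 had 92 UMIs in CTRL and 40 in DHEA, a log2 ratio of -1.23 (-1.80 to -0.68), and stayed below the 200 UMIs that count as measured. Papss1, which makes the sulfate donor, stood at 18.6 and 16.5 CPM, and Papss2 had 21 and 13 UMIs. The steroid sulfatase gene was not analysed here. Of the 23 measured genes, 11 were the whole list of cholesterol delivery and electron transfer, whose proteins also serve other pathways. The others were 6 of the 17beta-HSD family, Srd5a3, Hsd11b1, H6pd, Akr1c13, Sult2b1 and Papss1. No gene of DHEA synthesis, the 3beta-HSD step or aromatase was measured.

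Star was detected at a low level in both libraries. It had 192 UMIs in 181 CTRL cells and 107 in 103 DHEA cells, which is 3.90 CPM (3.37 to 4.49) and 2.14 CPM (1.75 to 2.58). No cell held more than 2 UMIs. The CTRL level was 1.82-fold the DHEA level and the intervals did not overlap, a log2 ratio of -0.87 (-1.22 to -0.52). Among the genes detected in gated cells, Star ranked at the 55.4th percentile in CTRL and the 50.9th in DHEA. The partner that Star delivers cholesterol to, Cyp11a1, had 0 UMIs in the same cells. In the filtered cells outside the gate Cyp11a1 had 2 UMIs in CTRL.

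Hsd17b10, a mitochondrial enzyme that breaks down isoleucine and is a subunit of mitochondrial RNase P, was the most abundant of the 8 genes. It had 2660 UMIs in CTRL and 2701 in DHEA, or 54.0 CPM (52.0 to 56.1) and 53.9 (51.9 to 56.0), and the log2 ratio interval ran from -0.08 to 0.08. Hsd17b12, which carries out the second step of long-chain fatty acid elongation, followed at 38.3 CPM (36.6 to 40.1) and 36.1 (34.4 to 37.8), from 1888 and 1807 UMIs. Its log2 ratio was -0.09 (-0.18 to 0.01). Hsd17b4, the peroxisomal D-bifunctional protein of fatty acid breakdown, stood at 23.4 CPM (22.0 to 24.7) and 21.8 (20.5 to 23.1), from 1150 and 1091 UMIs, with a ratio of -0.10 (-0.22 to 0.02). For these 3 genes the intervals of the ratio included equal levels.

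Hsd17b11, a lipid droplet enzyme that can oxidise androstanediol, had 1088 UMIs in CTRL and 863 in DHEA. That is 22.1 CPM (20.8 to 23.4) and 17.2 (16.1 to 18.4), so CTRL was 1.28-fold higher, and the intervals did not overlap. The log2 ratio was -0.36 (-0.49 to -0.23). Hsd17b7, which reduces the 3-keto group of sterol intermediates in cholesterol synthesis and can also reduce estrone, lay much lower, with 162 and 243 UMIs. Its level was 3.29 CPM (2.80 to 3.84) in CTRL and 4.85 (4.26 to 5.50) in DHEA, a log2 ratio of 0.56 (0.27 to 0.86), or 1.47-fold higher in DHEA.

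Srd5a3, the polyprenol reductase that makes dolichol for protein N-glycosylation and was first grouped with the 5alpha-reductases by sequence, had 911 and 1105 UMIs. It stood at 18.5 CPM (17.3 to 19.7) in CTRL and 22.1 (20.8 to 23.4) in DHEA, a log2 ratio of 0.25 (0.13 to 0.38). Srd5a1, the 5alpha-reductase of most tissues outside the prostate, had 11 UMIs in 11 CTRL cells and 18 in 18 DHEA cells, or 0.223 CPM (0.112 to 0.400) and 0.359 (0.213 to 0.568). The ratio interval of Srd5a1 ran from -0.47 to 1.91, so a difference was not detectable at this depth. Srd5a1 overlaps Gm17108 on the same strand, with 33 and 52 UMIs, and Nsun2 on the opposite strand, with 2128 and 2141, so its few UMIs are uncertain.

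**Figure D2:**
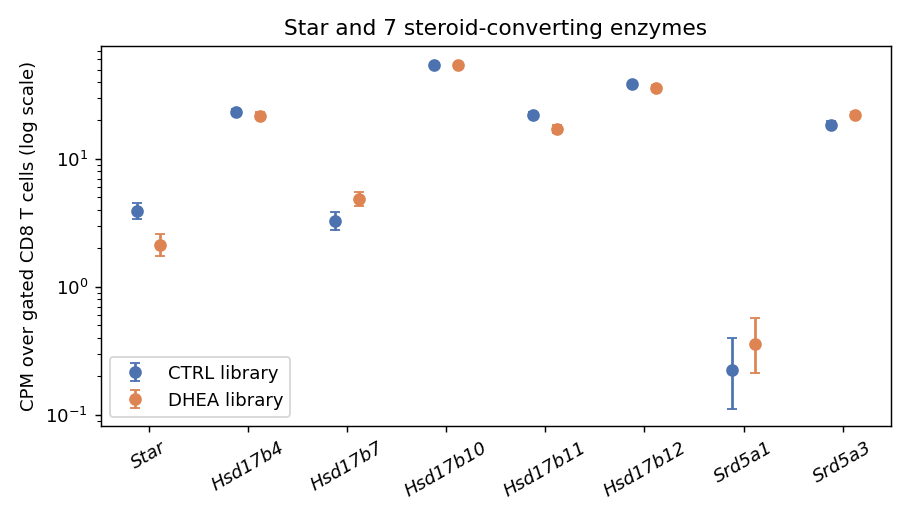
Level of each of the 8 genes in CPM on a log axis, over all gated CD8 T cells of the CTRL library (left point of each pair) and the DHEA library (right point), with exact 95% counting intervals. The intervals of the 2 libraries are apart for Star, Hsd17b7, Hsd17b11 and Srd5a3, and Srd5a1 is the lowest gene in both.

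Of the 8 genes, 7 were measured, and Srd5a1 was not. Of these 7, Star alone was at least 1.5-fold apart between the libraries. Among all 10515 measured genes 3.24% were that far apart, 1.81% higher and 1.44% lower in DHEA. Among those with under 500 UMIs, where Star and Hsd17b7 lie, 5.38% were higher and 5.58% lower by that size. The interval of the ratio excluded equal levels for 4 genes, with Hsd17b7 and Srd5a3 higher and Star and Hsd17b11 lower in DHEA. The same held for 54.5% of all measured genes, 26.3% higher and 28.2% lower, so this share is near the background. The median log2 ratio over all measured genes was -0.0024.

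The 250 bases before and 50 after the annotated start are shown for the 3 enzymes whose ratio interval excluded equal levels, so that the sequence can be read beside the ratios. The sequences are from RefSeq on GRCm38.p6, another build than the mm39 of the submitters' processing notes, and the RefSeq table held 6 of the 8 genes, all but Star and Hsd17b4. The windows are chr1:169969156-169969455 on the minus strand for Hsd17b7, chr5:76140023-76140322 on the plus strand for Srd5a3, and chr5:104021747-104022046 on the minus strand for Hsd17b11. Capitals mark CACGTG, the palindromic E-box, in Hsd17b7 and Srd5a3, and CCAAT, the reverse complement of ATTGG, in Hsd17b11. Matches of other motifs in these windows are not marked.
Hsd17b7: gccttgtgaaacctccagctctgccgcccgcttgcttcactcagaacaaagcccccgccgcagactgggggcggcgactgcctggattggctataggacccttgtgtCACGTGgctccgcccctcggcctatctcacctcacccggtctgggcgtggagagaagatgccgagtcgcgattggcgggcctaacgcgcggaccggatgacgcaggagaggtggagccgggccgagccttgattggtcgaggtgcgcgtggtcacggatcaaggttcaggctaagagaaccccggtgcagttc
Srd5a3: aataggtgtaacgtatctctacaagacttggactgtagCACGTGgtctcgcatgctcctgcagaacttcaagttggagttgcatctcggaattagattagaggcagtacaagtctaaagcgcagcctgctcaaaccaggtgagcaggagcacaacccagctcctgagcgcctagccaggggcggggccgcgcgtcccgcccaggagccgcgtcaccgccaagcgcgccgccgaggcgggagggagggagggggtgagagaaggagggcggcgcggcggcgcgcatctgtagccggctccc
Hsd17b11: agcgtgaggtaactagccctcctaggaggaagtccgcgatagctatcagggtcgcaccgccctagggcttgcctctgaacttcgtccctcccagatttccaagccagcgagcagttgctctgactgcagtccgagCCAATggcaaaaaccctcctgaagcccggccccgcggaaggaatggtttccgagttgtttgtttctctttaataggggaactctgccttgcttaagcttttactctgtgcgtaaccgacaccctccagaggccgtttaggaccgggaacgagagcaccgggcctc

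Motifs were searched as exact letters on both strands in all 32851 promoter windows of the table. CACGTG was in 7.15% of them. Hsd17b7 had 1 match, whose first base lies 143 bases before the start, and Srd5a3 had 1 at 212 bases before it, while Hsd17b10, Hsd17b11, Hsd17b12 and Srd5a1 had none. These are also the 2 genes with higher DHEA levels whose interval excluded equality. CACGTG is 1 of several motifs searched, and a link of any motif to the ratios was not tested. ATTGG, the CCAAT box, was in 37.4% of windows, with 3 matches in Hsd17b7, 2 in Hsd17b12, 2 in Srd5a1, 1 each in Hsd17b10 and Hsd17b11, and none in Srd5a3. GGGCGG, the GC box, was in 35.7% of windows and had at least 1 match in each of the 6. TATAAA, in 13.6% of windows, and AGGTCA, the nuclear receptor half-site in 16.3%, had no match in the 6. GGTCANNNTGACC, the estrogen response element with N for any base, was in 0.0700% of windows and in none of the 6. TGTTCT, a half-site of androgen and glucocorticoid receptor elements, was in 19.0% of windows and had 1 match, in Hsd17b7. A match describes letters in this window only and shows no binding.

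The order of the levels differed between the libraries at 2 places. In CTRL it ran Hsd17b10, Hsd17b12, Hsd17b4, Hsd17b11, Srd5a3, Star, Hsd17b7 and Srd5a1. Intervals of neighbours overlapped there for Hsd17b4 with Hsd17b11 and for Star with Hsd17b7. In DHEA, Srd5a3 stood beside Hsd17b4 with overlapping intervals, Hsd17b11 came below both, and Hsd17b7 stood above Star with intervals apart.

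Shares of cells with a UMI depend on depth, so each cell was also thinned to 2000 UMIs, leaving out 231 CTRL and 1862 DHEA cells that were shallower. Star was then seen in 0.848% of CTRL cells (0.664 to 1.07) and 0.441% of DHEA cells (0.314 to 0.603), against 2.08% and 0.963% before thinning. Hsd17b7 was seen in 0.577% (0.427 to 0.763) and 0.905% (0.718 to 1.13), against 1.84% and 2.11%. For Hsd17b11 the thinned shares were 4.11% (3.70 to 4.56) and 3.29% (2.93 to 3.69), against 11.4% and 7.56%. Srd5a3 had 3.55% (3.16 to 3.96) and 4.54% (4.11 to 4.99) after thinning and 9.83% and 9.66% before, so its order between the libraries showed only at equal depth. Hsd17b10, the most widespread of the 8, was seen in 10.5% and 9.91% of thinned cells.

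At least 1 of the 8 genes was seen in 28.2% of thinned CTRL cells and 27.1% of thinned DHEA cells, against 57.0% and 48.9% before thinning. Exactly 1 gene was seen in 24.7% and 23.9%, 2 genes in 3.37% and 2.96%, and 3 or more in 12 cells (0.141%) and 23 cells (0.260%). Of cells with a Star UMI, 5 of 72 in CTRL and 4 of 39 in DHEA also had one of Hsd17b10, which is 6.94% and 10.3%, against 10.6% and 9.91% of cells without one of Star.

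Cells outside the gate, 493 in CTRL and 972 in DHEA, gave levels of the same order for most of these genes. They were a mix that differed between the libraries and not a type known to lack the genes. Cd3e stood at 553 and 573 CPM in them, Lyz2 at 466 and 5.07, and summed markers of myeloid cells at 624 and 117 and of gamma-delta or NKT cells at 255 and 261. Their median depths were 3185 and 1613 UMIs. Star stood there at 4.54 CPM (2.08 to 8.62) in CTRL and 5.91 (3.23 to 9.92) in DHEA. Thus the DHEA level outside the gate, from 14 UMIs, lay above that inside it, while in CTRL the intervals overlapped. After thinning, 4 of 373 CTRL cells (1.07%) and 1 of 376 DHEA cells (0.266%) outside the gate had a Star UMI. Inside it the thinned shares were 0.848% and 0.441%, so the order in DHEA was then the other way, with overlapping intervals. Hsd17b10 stood at 56.5 and 39.7 CPM outside the gate and Hsd17b12 at 34.3 and 44.8. How far free RNA in the droplets adds to any of these counts was not tested.

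To compare states, gated cells were clustered without the 8 genes and without the genes of the steroid and neighbouring pathways. The 15 clusters gave 14 states. Naive-like cells (clusters 1 and 5) were 2883 in CTRL and 1774 in DHEA, memory-like cells 995 and 1603 and effector-like cells 184 and 435. Smaller states were early-activated-like (141 and 109 cells, led by Egr3, Tnfrsf9 and Egr2), interferon-responding-like, innate-like, NF-kB-high, heat-shock-high, proliferating-like and nuclear-rich, the last led by Lars2 and Gphn. Clusters 0, 3, 6 and 11 stayed unnamed. Memory-like cells had 1 memory marker, Gzmm, among their 10 leading genes, naive-like cells had no naive marker there, S100a8 and S100a9 were among the leading genes of the innate-like cells, and Car1 among those of the proliferating-like cells. The names were set after the clusters had been seen.

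The 6 measured enzymes had UMIs in all 14 states of both libraries. Star had no UMI in proliferating-like CTRL cells or early-activated-like DHEA cells, and the intervals of all 14 states overlapped that of the highest state in both libraries. Srd5a1 had UMIs in 7 of 14 states in CTRL and 9 in DHEA. Antigen-experienced cells (memory-like and effector-like together, a name from their genes only) were compared with naive-like cells within each library. Whether the cells so named had met antigen was not tested. Cluster 6 was left out of this group, though its Ccl5 and Cxcr3 (2741 and 179 CPM) were above those of memory-like cells (2318 and 150). Star stood at 3.95 CPM in them against 4.63 in naive-like CTRL cells, and at 1.502 against 2.58 in DHEA cells, with log2 ratios of -0.23 (-0.86 to 0.38) and -0.78 (-1.74 to 0.18).

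For Hsd17b4 the same ratio was -0.33 (-0.60 to -0.06) in CTRL, with 18.7 against 23.5 CPM, and -0.04 (-0.31 to 0.23) in DHEA. Hsd17b12 had -0.11 (-0.31 to 0.09) and -0.25 (-0.47 to -0.04), with 31.3 against 37.3 CPM in DHEA. The interval of Hsd17b4 thus excluded equal levels in CTRL alone and that of Hsd17b12 in DHEA alone, and whether the libraries differ in this was not tested. None of the 8 genes was at least 1.5-fold apart, in 1 direction, between antigen-experienced and naive-like cells of both libraries, as were 5.16% (higher) and 2.08% (lower) of the genes compared. Star, Hsd17b7 and Srd5a1 had under 200 UMIs in these cells. The result holds for the group as drawn, since Srd5a3 passed that size in effector-like cells and in cluster 6, each taken alone.

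Among the wider set of steroid enzymes, Hsd11b1 and Akr1c13 did pass that size in antigen-experienced cells of both libraries. Hsd11b1 stood at 274 CPM in antigen-experienced and 164 in naive-like CTRL cells, and at 289 and 172 in DHEA cells, log2 ratios of 0.74 (0.66 to 0.82) and 0.75 (0.66 to 0.84). Akr1c13 stood at 15.4 against 9.13 CPM and at 23.4 against 13.1, with ratios of 0.76 (0.41 to 1.11) and 0.83 (0.51 to 1.17). Within this group the Akr1c13 ratio came from memory-like cells, with 0.82 (0.46 to 1.18) in CTRL and 0.93 (0.60 to 1.26) in DHEA. Effector-like cells had 0.15 (-0.94 to 1.07) and 0.16 (-0.49 to 0.76), from 10 and 29 UMIs. Memory-like cells were not the highest state for Akr1c13. In DHEA that was cluster 6, with 27.5 CPM from 68 UMIs, but it had 6.84 CPM from 6 UMIs in CTRL. In CTRL the highest state was proliferating-like, with 17.2 CPM from 9 UMIs. Innate-like cells had Hsd11b1 at 336 and 318 CPM, heat-shock-high cells at 255 and 295 and nuclear-rich cells at 259 and 318. These states were also at least 1.5-fold above naive-like cells in both libraries, so the higher level was not particular to antigen-experienced cells. NF-kB-high cells had Hsd11b1 at 94.8 and 90.1 CPM. Effector-like cells taken alone had Hsd11b1 ratios to naive-like cells of 0.83 in CTRL and 0.55 in DHEA, the latter under 1.5-fold.

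Hsd17b12 and Srd5a3 were at least 1.5-fold higher than in naive-like cells, in both libraries, in the states given next. In early-activated-like cells Hsd17b12 reached 80.1 CPM (63.0 to 100.4) in CTRL, from 75 UMIs, and 69.4 (49.4 to 94.9) in DHEA, from 39 UMIs. Naive-like cells had 39.0 and 37.3, so the log2 ratios were 1.04 (0.67 to 1.39) and 0.89 (0.37 to 1.38), and this was the highest state in both libraries. Of all genes compared, 10.6% were at least 1.5-fold higher in these cells in both libraries. After thinning, the DHEA ratio was -0.03 (-1.37 to 1.05) while the CTRL ratio was 0.98 (0.26 to 1.63).

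Srd5a3 stood at 34.5 CPM (23.9 to 48.2) in effector-like CTRL cells and 32.8 (25.3 to 41.8) in effector-like DHEA cells, against 17.7 and 20.1 in naive-like cells. The log2 ratios were 0.97 (0.41 to 1.48) and 0.70 (0.27 to 1.13), from 34 and 65 UMIs. In that state 9.14% of genes were at least 1.5-fold higher in both libraries. In cluster 6, which is led by Gzmm, Klra6 and Klra3, Srd5a3 stood at 29.6 and 31.2 CPM, with ratios of 0.75 (0.11 to 1.33) and 0.63 (0.22 to 1.03). There 1.78% of genes were at least 1.5-fold higher in both libraries. In DHEA, Srd5a3 also stood at 37.0 CPM (23.7 to 55.1) in proliferating-like cells and 35.6 (21.7 to 55.0) in early-activated-like cells, from 24 and 20 UMIs, while in CTRL these states had 21.1 and 21.4. Memory-like cells had 16.4 and 20.7 CPM.

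Lower levels were seen for Hsd17b11 in early-activated-like cells, with 9.61 and 10.7 CPM against 21.1 and 17.4, but these rest on 9 and 6 UMIs and the DHEA interval, -2.18 to 0.45, included equal levels. For genes at least 1.5-fold lower in that state the background was 5.57%. In proliferating-like cells Hsd17b11 was also lower in both libraries, from 6 and 5 UMIs, with both intervals including equal levels and a background of 11.2%. Nuclear-rich cells, whose median depth was 2177 UMIs, had more Hsd17b4 (54.9 and 40.1 CPM) and Hsd17b11 (47.4 and 29.7) and less Hsd17b10 (29.9 and 22.3) than naive-like cells. In that state 40.4% of genes passed 1.5-fold upward and 13.8% downward in both libraries, so a difference there is near the background.

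**Figure D3:**
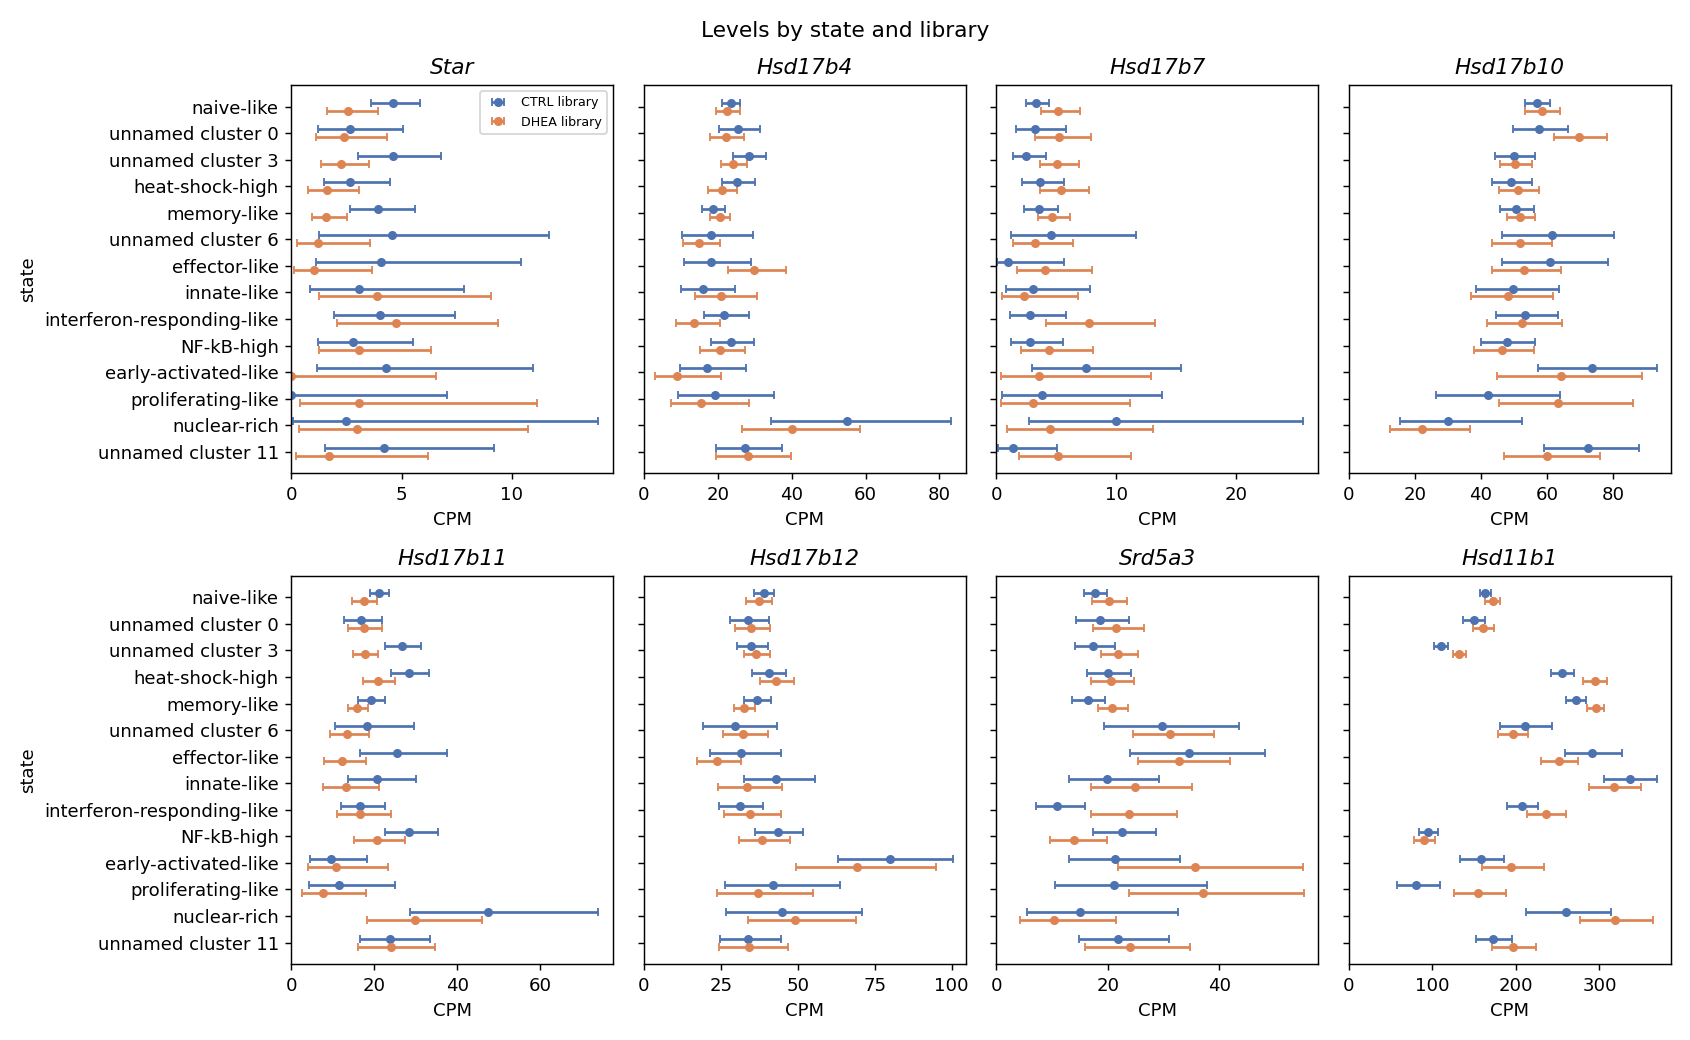
Levels in CPM by state (vertical axis) for 7 of the 8 genes and for Hsd11b1, with the CTRL and DHEA libraries side by side and exact 95% counting intervals. Hsd17b12 is highest in early-activated-like cells in both libraries (80.1 and 69.4 CPM), Srd5a3 is above its naive-like level in effector-like cells and cluster 6 in both libraries, and Hsd11b1 runs from 80.4 to 336 CPM in CTRL and from 90.1 to 318 in DHEA.

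The difference between the libraries was then taken within each state with at least 20 UMIs of the gene. Star was lower in DHEA in 4 of 4 states, with log2 ratios of -0.84 (-1.62 to -0.13) in naive-like cells, -1.31 (-2.24 to -0.42) in memory-like cells, -1.05 (-2.00 to -0.12) in cluster 3 and -0.72 (-2.11 to 0.59) in heat-shock-high cells. Hsd17b7 was higher in 6 of 6 states, between 0.40 and 1.45, and the interval excluded equal levels in 3 of them. Under 20 UMIs, signs were mixed for both genes and intervals included equal levels. There Star had 0.34 in innate-like, 0.24 in interferon-responding-like and 0.13 in NF-kB-high cells. It had -0.17, -1.91 and -1.30 in clusters 0, 6 and 11 and -2.01 in effector-like cells. Hsd17b7 had -0.49 in cluster 6 and -0.40, -1.07 and -1.16 in innate-like, early-activated-like and nuclear-rich cells. It had 1.99 in effector-like cells, 0.64 in NF-kB-high cells and 1.87 in cluster 11. The states share 1 library per group, so they are not independent of each other.

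Hsd17b11 was lower in DHEA in 9 of 12 states, between -1.07 in effector-like cells and 0.06 in cluster 0. The interval excluded equal levels in cluster 3, heat-shock-high and effector-like cells. In naive-like cells its ratio was -0.27 (-0.57 to 0.01). Srd5a3 was higher in 11 of 13 states. It was 1.12 (0.38 to 1.89) in interferon-responding-like cells, with 10.9 CPM in CTRL and 23.8 in DHEA, and 0.34 (0.02 to 0.66) in memory-like cells. In NF-kB-high cells it was lower, -0.68 (-1.34 to -0.05), with 22.5 and 14.0 CPM.

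Hsd17b4 was lower in DHEA in 10 of 14 states, Hsd17b10 in 8 and Hsd17b12 in 7. No state's interval excluded equal levels for Hsd17b4 or Hsd17b12, and 1 state's did for Hsd17b10, cluster 0, where the DHEA level was higher. Akr1c13 was higher in DHEA in 11 of 11 states, between 0.39 and 2.01.

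**Figure D4:**
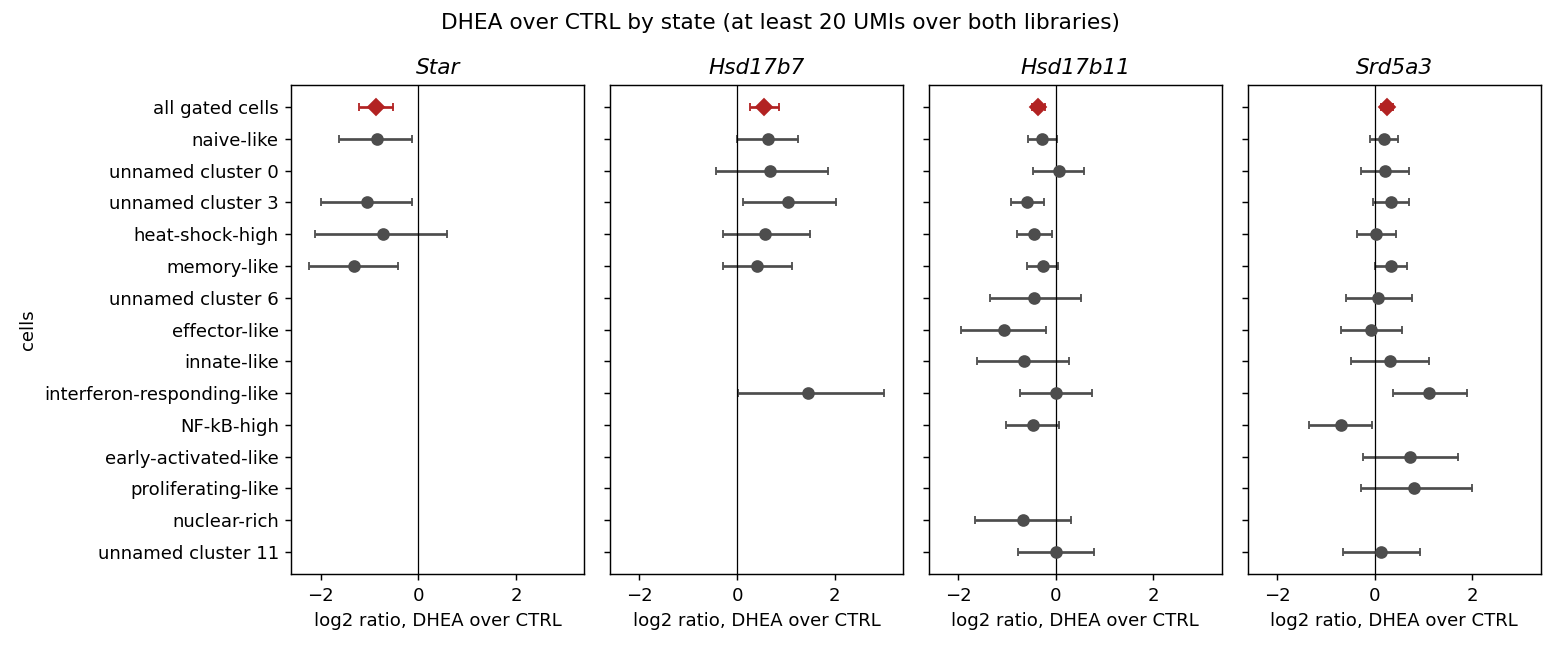
Log2 ratio of DHEA over CTRL for Star, Hsd17b7, Hsd17b11 and Srd5a3 over all gated cells (diamonds) and within each state that has at least 20 UMIs of the gene (circles), with exact 95% counting intervals and a line at equal levels. All plotted states lie left of the line for Star and right of it for Hsd17b7, and NF-kB-high cells lie opposite to most states for Srd5a3.

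The pathway around each enzyme was then read from lists that hold the enzyme itself, at a median of -0.0024 for all measured genes. In the cholesterol delivery and electron transfer list around Star, 6 of 11 genes were higher and 5 lower in DHEA, with a median log2 ratio of 0.02, and Star alone was at least 1.5-fold apart. The ratio interval excluded equality for 3 higher and 3 lower genes, a share near the 54.5% of all measured genes. Fdxr and Fdx1, which pass electrons to mitochondrial cytochromes P450, had ratios of 0.23 and 0.17, and Stard5, a cytosolic sterol carrier, 0.19. Npc2, which exports cholesterol from lysosomes, stood at 458 and 425 CPM, and Tspo, an outer mitochondrial membrane protein that binds cholesterol, at 204 and 204. The other sterol carriers of the list were well above Star, Stard3 at 20.0 and 21.7 CPM and Stard4 at 7.23 and 7.85.

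Hsd17b7 sits in a sterol synthesis list of 21 measured genes, of which 15 were higher and 6 lower in DHEA, with a median of 0.10. None was at least 1.5-fold apart. The interval excluded equality for 8 higher and 1 lower, against 26.3% higher and 28.2% lower of all measured genes. Idi1, an isomerase of isoprenoid synthesis, had 0.58 (8.12 and 12.1 CPM), and Mvd, which makes its substrate, 0.37. Cyp51, the lanosterol demethylase, had 0.33 and Fdps, which makes farnesyl diphosphate, 0.28. Only Idi1 had a larger ratio in this list than Hsd17b7. Srebf2, the transcription factor of the pathway, was the gene whose interval lay below equality, at -0.29 (49.6 and 40.6 CPM), while Ebp, a sterol isomerase, stood at 40.8 and 46.0 CPM.

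Of the lipid droplet list around Hsd17b11, 8 of 10 genes were measured, 5 higher and 3 lower in DHEA, with a median of 0.13. Plin2, a coat protein of lipid droplets, was at least 1.5-fold apart, 4.69 CPM in CTRL and 7.09 in DHEA, a log2 ratio of 0.60 (0.35 to 0.84). Abhd5, the co-activator of the lipase Pnpla2, had 0.33, and Pnpla2 itself stood at 28.6 and 33.3 CPM. Lipe, hormone-sensitive lipase, and Hsd17b11 both had -0.36, opposite in sign to Plin2, Plin3 and Pnpla2. Rab18, a small GTPase of lipid droplets, stood at 38.0 and 38.9 CPM.

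In the dolichol list around Srd5a3, 7 of 8 genes were higher and 1 lower in DHEA, with a median of 0.09. Intervals excluded equality for 2 higher genes, Srd5a3 at 0.25 and Dolpp1, a dolichyl diphosphate phosphatase, at 0.28, and for Dpm1, a subunit of dolichol-phosphate mannose synthase, which was lower (151 and 141 CPM). These 3 of 8 genes are a smaller share than the 54.5% of all measured genes. Dpagt1, which starts the N-glycan on dolichol, had 0.18, and Nus1, a subunit of the enzyme that makes polyprenol, 0.10. Alg5, a dolichol-phosphate glucosyltransferase, stood at 35.1 and 36.3 CPM.

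For Hsd17b12 the elongation list had 8 of 12 genes measured, 5 higher and 3 lower, with a median of 0.07. The elongases Elovl7 and Elovl5 had 0.14 and 0.13, and Tecr, which follows later in the elongation cycle, stood at 91.9 and 98.4 CPM. Of the peroxisomal list around Hsd17b4, 12 of 15 genes were measured, 5 higher and 7 lower, with a median of -0.08. Abcd3, a fatty acid importer, had -0.33, while the thioesterase Acot8 had 0.22 and the carnitine transferase Crot 0.21. Scp2, the thiolase and sterol carrier, stood at 168 and 155 CPM and the thiolase Acaa1a at 51.1 and 47.8. The list around Hsd17b10 had 11 measured genes, 4 higher and 7 lower, with a median of -0.0097. There Trmt10c, a partner of Hsd17b10 in mitochondrial RNase P, had 0.26 and Prorp, the catalytic subunit, -0.10. Acat1, the thiolase of isoleucine breakdown, stood at 59.9 and 59.4 CPM, and Hibadh, of valine breakdown, at 56.3 and 52.2. In these 3 lists no gene was at least 1.5-fold apart.

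The genes most like each member across states were ranked by Pearson's r of log2(CPM + 1) over 30 points, 15 clusters in each of the libraries. The points share a library, and clusters differ in depth, so r is a description. Hsd17b4 and Hsd17b11 were highest and Hsd17b10 lowest in nuclear-rich cells of both libraries. How far those points carry r was not tested. Hsd17b12 was most like Rcc2 (r = 0.908), Nolc1 (0.877) and Ncl (0.870). Hsd17b10 was most like Micos13 (0.897), Eif3m (0.871) and Selenow (0.866). Hsd17b4 was most like Kdm3a (0.913), Il17ra (0.873) and Arid4a (0.855), and Hsd17b11 was most like Lypd6b (0.879), Marchf7 (0.862) and Sipa1l3 (0.861). For Srd5a3 the values were lower, with Mrpl44 at 0.798, Tbcb at 0.788 and Tmem126a at 0.783. Star, Hsd17b7 and Srd5a1 had under 500 UMIs and were not ranked.

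Depth and gene span moved with the groups, as did some markers of other cells, most of all those of natural killer cells. Values for the markers and for gene span follow. Summed markers of natural killer cells stood at 35.6 CPM in gated CTRL cells and 56.2 in gated DHEA cells, those of B cells at 19.4 and 20.1, of myeloid cells at 141 and 144, and of dendritic cells at 9.81 and 12.2. Markers of CD4 or regulatory T cells stood at 39.4 and 37.9 CPM, of gamma-delta or NKT cells at 10.4 and 10.9, and of red cells or platelets at 7.51 and 5.97. These sums do not count cells of those types. In CTRL, Cd4 gave 3 of the 1938 UMIs of its list, Lyz2 16 of 6950 and Cd79a 72 of 954. The natural killer list holds Eomes, which is also in the memory-like list. The part of all these markers in the ratios was not tested. When measured genes were split into 5 groups by the span of the gene in the genome, the median ratio ran from 0.11 in the shortest group, which holds Hsd17b10, to -0.15 in the longest, which holds Hsd17b4 and Hsd17b12. For Star and Srd5a3 the group median was 0.07, for Hsd17b7 0.01 and for Hsd17b11 -0.06. Subtracting these medians left Star, Hsd17b7, Hsd17b11 and Srd5a3 on the same side of equality.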

How the data were processed

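Raw UMI counts per gene and barcode were deposited by the authors, 1 matrix per library, and the headers name Cell Ranger 8.0.1 as the counter. Seurat 4.3.0 and mm39 appear in the submitters' processing notes with no stated role. All columns belonged to a sample (0 did not). Of 9495 CTRL and 12128 DHEA barcodes, 3 and 4 were removed for under 200 genes and 282 and 453 for 10% or more mitochondrial UMIs. No doublet caller was run and doublets were kept. An alternative left out the 5% of cells with the most UMIs in each library.

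UMIs were summed per library and state. CPM carry exact Poisson intervals, log2 ratios exact intervals from the binomial split of 2 counts, and shares Clopper-Pearson intervals, all at 95% and for counting error only. A 1.5-fold distance served as the size threshold, and 0.5 was added to counts for the state background. Clustering used 2000 variable genes, 30 principal components, 15 neighbours and Leiden resolution 1. A cluster took the name of the marker list with the highest mean log2 fold if that was above 0.5, with at least 3 detected markers and at least as many of them among its 10 leading genes as any other list. It was called naive-like if no list had more leading genes than the naive one, Ccr7 was above and Ccl5, Cxcr3 and Cd44 were below the median over clusters. This rule was set after the clusters were seen.

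Named genes were the 8 given, every gene of the steroid steps by its UMIs, up to 4 genes per list with the largest ratio and 2 with the highest level, and the 3 genes most like each enzyme of at least 500 UMIs. Leading genes of clusters, gate genes and the markers Cd4, Cd79a and Lyz2 fall outside this rule. So does Plin3, picked after its values were seen. Not every gene the rule picks is reported here. The genes and lists were chosen with earlier results of these data known. Alternatives changed the scaling, depth, gate, filters, doublets, shared barcodes, state mix, clustering and minimum. The ratio and interval steps were tested on simulated counts. TMM factors came from edgeR 4.0.16 (R 4.3.3), and the rest from Python 3.11.15 with scanpy 1.11.5, leidenalg 0.10.2, numpy 2.4.6, pandas 2.3.3, scipy 1.17.1 and matplotlib 3.10.9.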

Additional observations from a re-analysis of the deposited data

Results flagged for a closer look

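Srd5a3, the polyprenol reductase, had log2 ratios of DHEA over CTRL on opposite sides of equal levels in different states. In memory-like cells the ratio was 0.34 (0.02 to 0.66), from 125 CTRL and 235 DHEA UMIs, and in interferon-responding-like cells it was 1.12 (0.38 to 1.89), from 27 and 40. NF-kB-high cells had -0.68 (-1.34 to -0.05), from 64 and 32. With 1 library per group each state has 1 value, and the difference between the states was not tested.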

How the results depend on the processing

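No paired analysis was possible because each group has 1 library and the labels carry no replicate numbers, and for the same reason no replicate could be left out. Over 13 alternatives per gene, 4 of them added after seeing the data, the log2 ratios of DHEA over CTRL ranged from -1.04 to -0.75 for Star, 0.54 to 0.72 for Hsd17b7, -0.38 to -0.30 for Hsd17b11 and 0.19 to 0.37 for Srd5a3, so these 4 kept their direction. Of all such values, 99 lay within the interval first given and 4 did not. With the median of genes of like span subtracted, Hsd17b4 had 0.047, Hsd17b12 0.060 and Hsd17b10 -0.11, and with every cell thinned to 2000 UMIs Hsd17b10 had -0.086. For antigen-experienced against naive-like cells, 58 values lay within the interval first given. The other 3 were Hsd17b11 in CTRL at -0.36 with resolution 0.5, Hsd17b11 in DHEA at 0.16 with marker genes left out of the clustering, and Srd5a3 in CTRL at -0.24 with resolution 2. Levels without the gene gate stayed within the intervals for 16 of 16. That set holds all gated cells plus only 493 CTRL and 972 DHEA cells, so little change was possible. In early-activated-like DHEA cells, the Hsd17b12 ratio to naive-like cells turned to -0.030 when cells were thinned to 2000 UMIs, and the cause was not tested. The Srd5a3 ratio in effector-like cells kept its direction in 6 of 6 values. At least 1 of the 8 genes was seen in 15.2% of CTRL and 15.2% of DHEA cells thinned to 1000 UMIs, and in 57.0% and 48.9% unthinned. Genes at least 1.5-fold apart numbered 190 higher and 151 lower, but 1358 and 1929 with no minimum beyond 3 UMIs, and 72 and 37 with a minimum of 1000. With no such minimum the lists' counts at least 1.5-fold apart were 3 of 11 for the 17beta-HSD family, 2 of 10 for lipid droplets and 1 of 11 for elongation. For DHEA synthesis the count was 1 of 1, and for the 3beta-HSD step and 5alpha-reductases 1 of 2 each. Sulfation had 1 of 3 and 7-hydroxylation with 11beta-HSD 1 of 4. Several rest on few UMIs, such as Hsd17b13 with 11 in CTRL and 1 in DHEA. The DHEA synthesis gene was Cyp17a1, with 0 and 5 UMIs, where the 0 was set to 3. The share of all genes at this filter is not given, so these counts have no background. Depth limits Srd5a1, with 29 UMIs in all, and every ratio within the smaller states.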
